A study of Homo sapiens with 8 samples.

Results

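Condensin and type II topoisomerase were followed through 10 genes, chosen by name from the 60230 genes of the table: SMC2 and SMC4, which both condensins share, NCAPD2, NCAPG and NCAPH of condensin I, NCAPD3, NCAPG2 and NCAPH2 of condensin II, and the topoisomerases TOP2A and TOP2B. All 10 were detected in every sample, with between 379 and 6520 counts, and all 10 were among the 13404 genes tested. The samples were HepG2 cells, an established human hepatocellular carcinoma line, in a derivative that overexpresses the drug-metabolizing enzyme CYP3A4, and the study asked whether plastic-related compounds harm such cells. For 24 h the cells received 0.2% DMSO or 1 of 3 plastic antioxidants (compounds 4, 5, and 6) at its own IC50, so that molar concentrations differed between compounds. All 3 antioxidants are bisphenols. Compound 4, named metylcresol in the labels, has a methylene bridge with a tert-butyl and a methyl group on each ring. Compound 6 (cyclohexil) has cyclohexyl in place of tert-butyl, and compound 5 (tetrabut) has an ethylidene bridge, a pair of tert-butyl groups on each ring and no ring methyl. Each group had 2 samples, labelled day 1 and day 2, and every group, the controls included, carried the CYP3A4 overexpression. No untransfected HepG2 cells were analysed here. Nothing in the labels says that the samples were separate cultures, so p-values measure the spread between these samples, which may be technical.

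Condensins are ring-shaped ATPases that fold chromatin into loops and so shape mitotic chromosomes. An SMC2-SMC4 pair forms the arms of the ring, a kleisin (NCAPH or NCAPH2) closes it, and a pair of HEAT-repeat proteins (NCAPD2 with NCAPG, or NCAPD3 with NCAPG2) sits on the kleisin. Condensin II stays in the nucleus through interphase, whereas condensin I reaches the chromosomes once the nuclear envelope has broken down. Topoisomerase II passes one DNA duplex through another. TOP2A is the isoform of dividing cells and part of the mitotic chromosome axis, and TOP2B is also made by cells that do not divide.

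The estimated counts summed to between 9472261 and 13308975 per sample. By the column names, replicate 1 of compound 4 and replicate 1 of compound 5 were each merged from a pair of numbered items. The names do not say what these items were. Levels are given as CPM, counts relative to the library size after TMM scaling. CYP3A4 was read at 198 and 207 CPM for DMSO, 287 and 216 for compound 4, 371 and 421 for compound 5, and 170 and 171 for compound 6. The 8 hepatocyte markers summed to 41200 and 39400 CPM for DMSO and to between 30800 and 37700 CPM in the treated samples. With edgeR, 3 of the 8 were lower with compound 4 (AFP -0.63, APOA1 -0.66, and TF -0.56 on the log2 scale) and TTR was higher (0.66). With compound 5 the same 3 were lower (-0.68, -0.78, and -0.40). APOA1 (-0.74) and TF (-0.55) were lower with compound 6, both lost with the day as a block (adjusted p = 0.0576 and 0.0547 with edgeR). Of all genes tested, 5.42%, 14.2%, and 1.6% were called as lower with compounds 4, 5, and 6. As higher with compound 4, 871 of the 13404 genes were called. The 9 markers of other liver cell types summed to 41.5 and 29.3 CPM for DMSO, 66.2 and 64.7 for compound 4, 44.3 and 38.7 for compound 5, and 55.6 and 53.9 for compound 6, and 4 of them (STAB2, PTPRC, CD163, and DCN) had 0 counts in all 8 samples. CD68 and PDGFRB, the 2 of these markers that could be tested, were both higher with compound 4, by 0.80 and 1.80 on the log2 scale. The part of these differences in the results was not tested. Since RNA was taken from whole cultures, fewer cells of a type or cell cycle phase and less RNA per cell cannot be told apart.

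Promoter windows of 300 bases (250 before and 50 after a transcript start, RefSeq, GRCh38.p14) were found for 9 of the 10 genes, the exception being NCAPH2. They were searched on both strands for the CHR element, a short promoter element of genes expressed late in the cell cycle, spelled TTTGAA. At least 1 window held it for 8 of the 9 genes, beside 18.2% of the 27305 genes with a window. The 9 genes had 13 windows, of which 8 held it (61.5%), beside 15.2% of all 35116 windows. SMC2, SMC4, NCAPD3, and TOP2B each had 1 window with the element and 1 without. NCAPH lacked these letters in its window. The element stood both in genes that fell with all 3 compounds and in TOP2B, which was called with none of them in the fit of all 8 samples. The part of the element in the changes was not tested. The sites are printed with 11 bases on either side, or as far as the window reaches, 5′ to 3′ on the strand of the gene, with the element in capitals. TTCAAA is the same element read on the other strand. Their positions are counted from the transcript start.
SMC2 (chr9:104094295-104094322, plus strand, bases -3 to 3): tcgcgccgaaaTTCAAAggaataaatag
SMC4 (chr3:160399564-160399591, plus strand, bases -75 to -70): ccgcactttttTTCAAAttagtggatcc
NCAPD2 (chr12:6493946-6493973, plus strand, bases -145 to -140): agccgttgagaTTTGAActcggtatttg
NCAPG (chr4:17810933-17810960, plus strand, bases -35 to -30): cgcgggaattaTTTGAAcgttcgagcgg
NCAPD3 (chr11:134223954-134223981, minus strand, bases -3 to 3): cgggagcgagcTTTGAAagttgagcacg
NCAPG2 (chr7:158704755-158704780, minus strand, bases 36 to 41): cggcgggtgcgTTTGAAtctggtccg
TOP2A (chr17:40418074-40418101, minus strand, bases -194 to -189): gagtggtgcctTTTGAAgcctctctagt
TOP2A, second site (chr17:40418031-40418058, minus strand, bases -151 to -146): tgattggtttaTTCAAAcaaaccccggc
TOP2B (chr3:25665118-25665145, minus strand, bases -227 to -222): cctgctctcccTTCAAAtggaaaaccca

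Other elements of cell cycle promoters were less evenly spread. The CCAAT box (CCAAT) was in the windows of 5 of the 9 genes (NCAPD2, NCAPH, NCAPD3, TOP2A, and TOP2B), beside 39.7% of all genes, and in 38.5% of their 13 windows, beside 34.6% of all windows. An E2F-like site (TTTNNCGC) was in those of NCAPG and NCAPD3, beside 8.23% of all genes, and the variant CHR spelling TTCGAA was in none of the 9, beside 1.82%. No searched pattern overlapped another in the printed stretches, and these matches are descriptions of letters, not of binding. TOP2A had the most CCAAT boxes together with NCAPD2, 4 each, and was the only member with 2 CHR elements. Its 196 bases upstream of every annotated transcript start, from -250 to -55, hold both CHR elements and 3 of the CCAAT boxes, shown in capitals (ATTGG is CCAAT read on the other strand).
TOP2A (chr17:40417951-40418146, minus strand): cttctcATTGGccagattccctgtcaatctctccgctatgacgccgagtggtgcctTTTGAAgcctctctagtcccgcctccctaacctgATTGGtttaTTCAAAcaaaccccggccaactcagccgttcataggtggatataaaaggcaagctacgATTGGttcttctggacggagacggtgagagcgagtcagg

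In the DMSO samples the levels per length ranged from 7.62 to 78.1 between the members. They are CPM per kilobase of merged exons (GENCODE 29), as mean ± SD over 2 samples. TOP2A was highest, with 78.1 ± 7.3 CPM per kilobase. NCAPD2 followed with 33.8 ± 2.61 and NCAPH2 with 30.7 ± 1.67 CPM per kilobase. The kleisins thus ran opposite to the other subunits: NCAPH2 of condensin II was read above NCAPH of condensin I, while NCAPD2 and NCAPG were read above NCAPD3 and NCAPG2. TOP2B stood at 22.2 ± 2.05 and NCAPH at 19.5 ± 0.766 CPM per kilobase. SMC4 (14.9 ± 1.44) and NCAPG (14.4 ± 0.714) were the only neighbours in the order whose samples overlapped. NCAPG2 (10.5 ± 0.681), SMC2 (9.18 ± 0.995), and NCAPD3 (7.62 ± 0.545 CPM per kilobase) were lowest. The order depends on the length used: over the longest annotated transcript NCAPH2 (46.7 CPM per kilobase) passed NCAPD2 (39.6), SMC4 (23.0) passed NCAPH (21.7), and NCAPD3 (12.5) passed SMC2 (9.91).

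**Figure D1:**
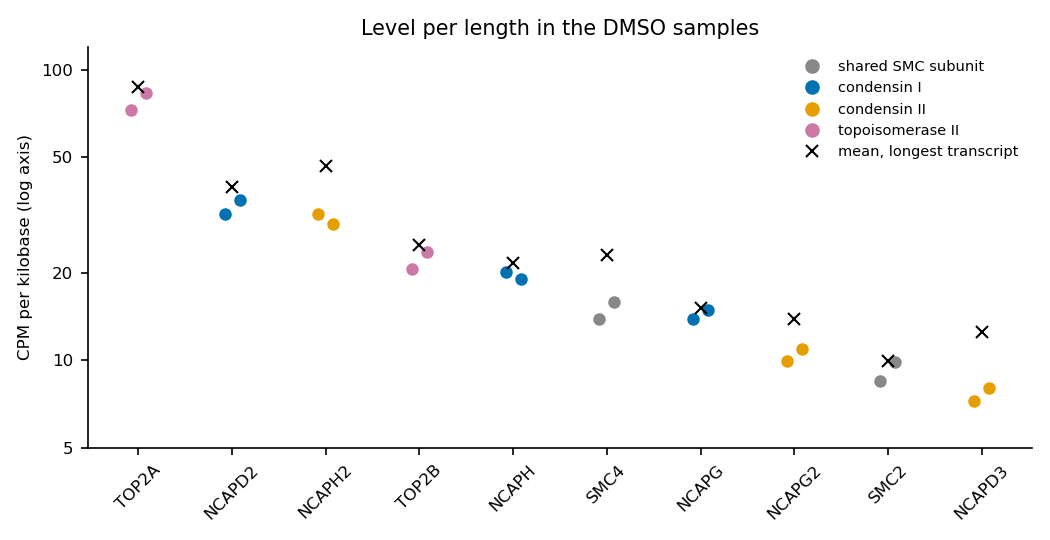
CPM per kilobase (log axis) of each gene in the DMSO samples, with 1 point per sample over the merged exons and a cross for the mean over the longest transcript. TOP2A is highest on both lengths, at 78.1 and 87.3, and the crosses lie farthest from the points for NCAPD3, NCAPH2, and SMC4.

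With compound 4, 8 of the 10 genes fell, all but NCAPH2 and TOP2B, at an edgeR adjusted p under 0.05, beside 5.42% of all genes tested. The median log2 fold change was -0.80 for the 10 genes and 0 for all genes tested. The same 8 genes had both treated samples below both DMSO samples, which was so for 27.1% of all genes. Without DMSO replicate 2 the count was 5, with SMC2, NCAPD3, and NCAPG2 no longer called (adjusted p of 0.0622, 0.171, and 0.101 with edgeR). NCAPD3 was also not called without DMSO replicate 1 (0.0629) or without compound 4 replicate 2 (0.0919), whereas TOP2B was called without compound 4 replicate 1 (log2 fold change -0.45, adjusted p = 0.0422).

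With compound 5, 6 of the 10 fell, beside 14.2% of all genes tested, with a median log2 fold change of -0.42 against -0.03 for all genes. They were SMC2, SMC4, all 3 condensin I subunits, and TOP2A. Both treated samples lay below both DMSO samples for 8 members, beside 37.3% of all genes, and above them for TOP2B, beside 32.9%. The call of SMC4 was lost when the day was used as a block (adjusted p = 0.0529 with edgeR), and it was also lost under RLE scaling (0.0539), with no filter (0.0619), and without compound 6 replicate 1 (0.0538) or 2 (0.0536). DESeq2 called neither SMC4 (0.0761) nor SMC2 (0.0513). Without either compound 4 sample 6 members were called, and without either compound 6 sample 5. With 1 DMSO or compound 5 library fewer, 2 members were called without DMSO replicate 1, 1 without DMSO replicate 2, 0 without compound 5 replicate 1, and 1 without compound 5 replicate 2. Of all genes called, 49.3% were higher, and upper-quartile and library-size scaling made this 36.6% and 33.3% and moved the median of all genes to -0.12 and -0.14, with no sign of a member turned.

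With compound 6, 4 of the 10 fell (SMC4, NCAPG, NCAPH, and TOP2A), beside 1.6% of all genes tested, with a median of -0.48 against 0. Both treated samples lay below both DMSO samples for 9 members, beside 26.6% of all genes. The count was 0 without DMSO replicate 1, without DMSO replicate 2, or without compound 6 replicate 2, and it was 7 with no filter on low counts, where SMC2 (adjusted p = 0.0144 with edgeR), NCAPD2 (0.00571), and NCAPG2 (0.0244) were added. SMC2 (0.0443) and NCAPG2 (0.0371) were also called without compound 6 replicate 1, and SMC2 and NCAPD2 without either compound 4 sample (0.0403 and 0.0197 without replicate 1, 0.0465 and 0.0219 without replicate 2). The compounds were compared with the same DMSO samples, so the 3 sets of values are not independent of each other.

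**Figure D2:**
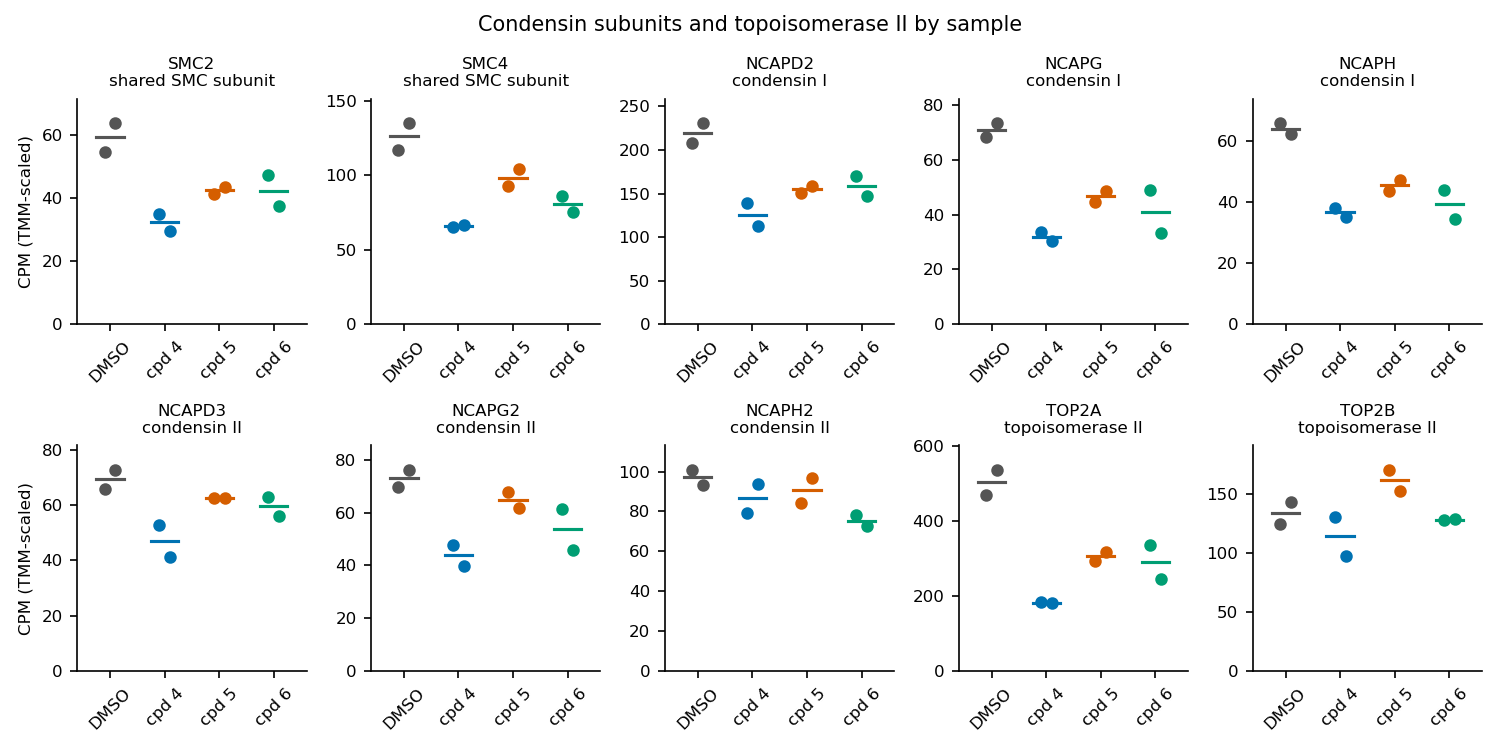
CPM (TMM-scaled) of each gene in each sample, with 1 point per sample and a line at the mean of the 2 samples of a group. The mean is lowest with compound 4 for 9 genes and with compound 6 for NCAPH2, TOP2A shows the widest gap (469 and 536 for DMSO, 183 and 180 for compound 4), and the TOP2B samples with compound 5 lie above those with DMSO.

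The ring arms shared by both condensins fell with compounds 4 and 5, and SMC4 also with compound 6. Of all genes tested, 5.42%, 14.2%, and 1.6% were called as lower with compounds 4, 5, and 6. The call of SMC4 with compound 5 was lost with the day as a block (adjusted p = 0.0529 with edgeR). Gene positions are from GENCODE 29 on GRCh38. SMC2 (ENSG00000136824, chr9:104094260-104141417, plus strand) was read at 54.8 and 63.9 CPM for DMSO, 35.1 and 29.6 for compound 4, 41.4 and 43.6 for compound 5, and 47.4 and 37.4 for compound 6. All 6 treated samples lay below both DMSO samples. The log2 fold change of SMC2 was -0.88 (SE 0.15, adjusted p = 0.00398 with edgeR) with compound 4 and -0.48 (SE 0.14, 0.0295) with compound 5, while the value for compound 6, -0.49 (SE 0.14, 0.0809), did not pass. SMC4 (ENSG00000113810, chr3:160399274-160434962, plus strand), the partner arm, was read at 117 and 135 CPM for DMSO, 65.4 and 66.9 for compound 4, 92.5 and 104 for compound 5, and 86.1 and 75.3 for compound 6. Again no treated sample reached the DMSO samples. The log2 fold change of SMC4 was -0.93 (SE 0.12, adjusted p = 0.00131) with compound 4, -0.36 (SE 0.12, 0.0432) with compound 5, and -0.64 (SE 0.12, 0.0161) with compound 6. The compound 5 value was -0.23 without DMSO replicate 2 (adjusted p = 0.307 with edgeR) and -0.25 without compound 5 replicate 1 (0.299). The compound 6 call was lost without DMSO replicate 1 (-0.74, 0.061), DMSO replicate 2 (-0.54, 0.178), or compound 6 replicate 2 (-0.54, 0.211).

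The 3 own subunits of condensin I fell with compounds 4 and 5, beside 5.42% and 14.2% of all genes tested. NCAPG and NCAPH also fell with compound 6, beside 1.6%. NCAPD2 (ENSG00000010292, chr12:6493356-6531955, plus strand), a HEAT-repeat subunit, was read at 208 and 231 CPM for DMSO, 139 and 113 for compound 4, 151 and 159 for compound 5, and 170 and 147 for compound 6. Every treated sample was below both controls. NCAPD2 changed by -0.80 (SE 0.13, adjusted p = 0.00317 with edgeR) with compound 4 and -0.50 (SE 0.13, 0.0142) with compound 5. The compound 5 value lay between -0.58 and -0.40 with 1 library left out. With compound 6 the value of -0.47 (SE 0.13, 0.0618) did not pass with edgeR, and DESeq2 called it (0.0159).

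NCAPG (ENSG00000109805, chr4:17810902-17844862, plus strand), the other HEAT-repeat subunit of condensin I, had the most negative value of the condensin genes with compounds 4 and 5. Its CPM were 68.4 and 73.4 for DMSO, 33.6 and 30.3 for compound 4, 44.7 and 48.6 for compound 5, and 48.9 and 33.3 for compound 6. With compound 4 it kept 45.1% of the DMSO level, a log2 fold change of -1.15 (SE 0.16, adjusted p = 0.00184 with edgeR). The changes with compounds 5 and 6 were -0.60 (SE 0.16, 0.0174) and -0.79 (SE 0.16, 0.0238), and the latter moved to -0.53 without compound 6 replicate 2 and was then not called (0.211). Of the 31-base stretches of NCAPG transcripts, 5.07% also occur in other genes, 2.88% in the pseudogene NCAPGP2, and for NCAPD2 the shares are 4.39% and, in NCAPD2P1, 3.16%, so a small part of their counts could be split by the quantification.

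NCAPH (ENSG00000121152, chr2:96335787-96373845, plus strand), the kleisin of condensin I, was read at 65.8 and 62.2 CPM for DMSO, 38.1 and 35.1 for compound 4, 43.5 and 47.3 for compound 5, and 44.0 and 34.5 for compound 6. The samples with compound 6 were again the most spread, and all 6 treated samples were below the controls. NCAPH changed by -0.81 (SE 0.13, adjusted p = 0.00357 with edgeR), -0.49 (SE 0.13, 0.0171), and -0.71 (SE 0.13, 0.0166) with compounds 4, 5, and 6. With 1 library left out, the compound 5 value lay between -0.56 and -0.41. That of compound 6 then lay between -0.86 and -0.53. NCAPH was the gene whose window lacked the CHR letters.

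The values of condensin II lay nearer to 0. Of its 3 own subunits, 2 fell with compound 4, beside 5.42% of all genes. Both calls were lost without DMSO replicate 2 (NCAPD3 -0.49, adjusted p = 0.171 with edgeR, and NCAPG2 -0.67, 0.101), and that of NCAPD3 also without DMSO replicate 1 (-0.63, 0.0629) or compound 4 replicate 2 (-0.38, 0.0919). None passed with compound 5 or 6, where 0 and 2 had an unadjusted p under 0.05, beside 5562 and 2680 of the 13404 genes tested. NCAPD3 (ENSG00000151503, chr11:134150119-134225454, minus strand), a HEAT-repeat subunit, was read at 66.0 and 73.0 CPM for DMSO, 52.9 and 41.3 for compound 4, 62.6 in both samples of compound 5, and 62.9 and 56.3 for compound 6. Its changes were -0.56 (SE 0.13, adjusted p = 0.0205 with edgeR) with compound 4, -0.15 (95% CI -0.44 to 0.14, 0.414) with compound 5, and -0.22 (95% CI -0.51 to 0.07, 0.382) with compound 6. All 6 treated samples were below both controls. Taken per compound, this was so for 27.1%, 37.3%, and 26.6% of all genes with compounds 4, 5, and 6. The share for all 6 samples at once was not counted.

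NCAPG2 (ENSG00000146918, chr7:158631311-158704829, minus strand), the other HEAT-repeat subunit, was read at 69.7 and 76.4 CPM for DMSO, 47.7 and 39.9 for compound 4, 67.7 and 61.9 for compound 5, and 61.5 and 45.9 for compound 6. It was the condensin II gene with the largest change, -0.74 (SE 0.15, adjusted p = 0.0107 with edgeR) with compound 4. The values for compounds 5 and 6 were -0.17 (95% CI -0.50 to 0.15, 0.404) and -0.45 (95% CI -0.78 to -0.12, 0.118). With no filter on low counts the compound 6 value was called (adjusted p = 0.0244 with edgeR). It lay between -0.65 and -0.24 with 1 library left out. NCAPH2 (ENSG00000025770, chr22:50508216-50523472, plus strand), the kleisin, stood out by overlapping the controls: 101 and 93.4 CPM for DMSO, 79.4 and 93.7 for compound 4, and 84.1 and 96.9 for compound 5. With compound 6 both samples, at 78.3 and 72.5 CPM, lay below. Its changes were -0.17 (95% CI -0.43 to 0.10, adjusted p = 0.421 with edgeR), -0.10 (95% CI -0.37 to 0.17, 0.566), and -0.36 (95% CI -0.63 to -0.10, 0.12), so a fall of over 0.43 with compound 4 lay outside its interval. The value for compound 5 was 0.02 without compound 5 replicate 1. Of the 31-base stretches of NCAPH2, 4.22% occur in other genes.

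**Figure D3:**
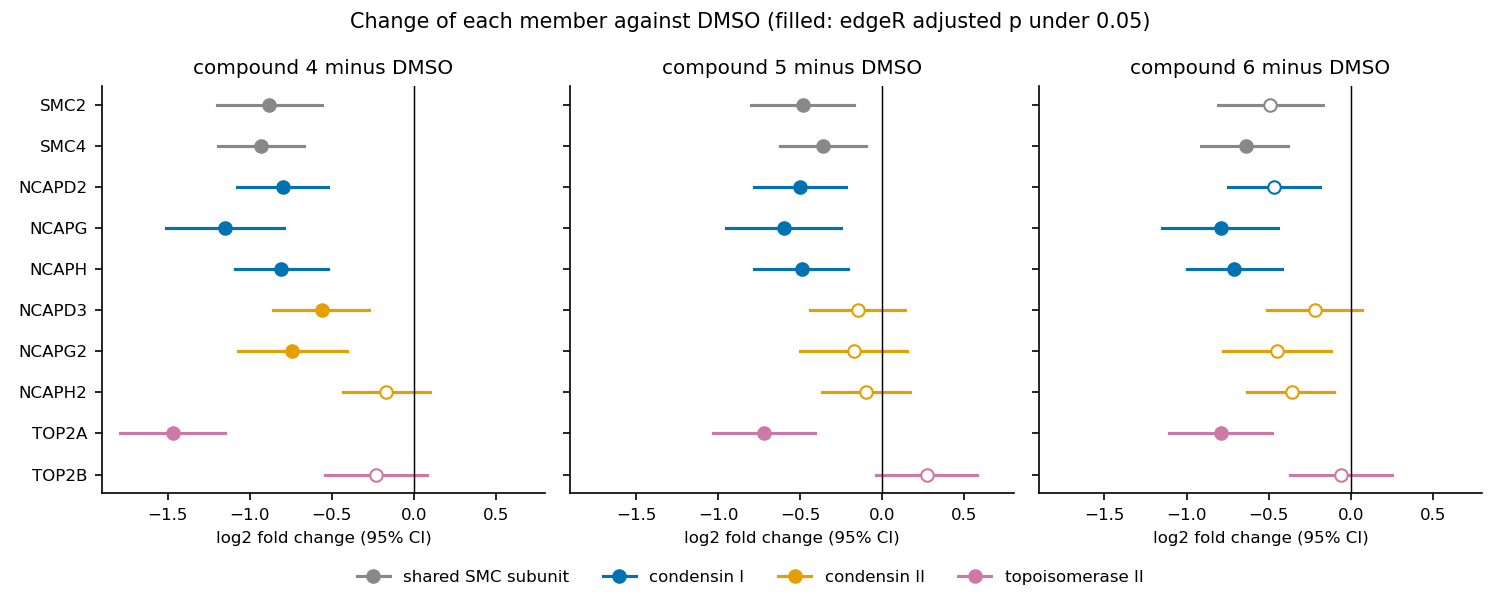
Log2 fold change of each gene against DMSO with its 95% confidence interval, by compound, coloured by complex and filled where the edgeR adjusted p was under 0.05. Condensin I and TOP2A lie left of condensin II and TOP2B in each panel, from -1.47 for TOP2A with compound 4 to 0.27 for TOP2B with compound 5.

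Condensin I was compared with condensin II through the mean log2 CPM of their 3 own subunits in each sample, a description with no test. The difference, condensin I minus II, was 0.34 in both DMSO samples. It was -0.06 and -0.12 for compound 4, -0.09 and -0.01 for compound 5, and 0.09 and -0.05 for compound 6. No treated sample reached the DMSO value, and the 2 samples of each compound lay closer to each other than to the DMSO samples. The mean log2 fold change of condensin I was -0.92 and that of condensin II -0.49 with compound 4, a difference of -0.43 (SD 0.04). With compound 5 they were -0.53 and -0.14, a difference of -0.39 (SD 0.06), and with compound 6 -0.66 and -0.35, a difference of -0.31 (SD 0.10). Upper-quartile and library-size scaling made the condensin II mean with compound 5 -0.23 and -0.25, and that of condensin I -0.62 and -0.64. The differences do not depend on how libraries are scaled, and with any 1 library left out they stayed between -0.46 and -0.25.

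The shift was present in each pair of counterparts. The size of a ratio depends on the lengths used, here those of merged exons, while its change between groups does not. NCAPD2 stood at 4.42 and 4.46 times NCAPD3 per kilobase with DMSO, at 3.69 and 3.86 times for compound 4, 3.39 and 3.57 for compound 5, and 3.79 and 3.67 for compound 6. NCAPG was 1.39 and 1.36 times NCAPG2 with DMSO, 1.00 and 1.08 for compound 4, 0.938 and 1.11 for compound 5, and 1.13 and 1.03 for compound 6. NCAPH was 0.629 and 0.642 times NCAPH2 with DMSO, 0.463 and 0.361 for compound 4, 0.499 and 0.470 for compound 5, and 0.542 and 0.458 for compound 6. In all 3 pairs the 6 treated samples lay below both DMSO samples, which were the same 2 for every compound. How often this holds for other pairs of genes was not counted. The difference of log2 fold changes with compounds 4, 5, and 6 was -0.64 (SD 0.25), -0.39 (SD 0.06), and -0.34 (SD 0.17) for NCAPH minus NCAPH2. For NCAPG minus NCAPG2 it was -0.41 (SD 0.08), -0.43 (SD 0.18), and -0.34 (SD 0.10), and for NCAPD2 minus NCAPD3 -0.24 (SD 0.04), -0.35 (SD 0.05), and -0.25 (SD 0.04). The kleisin value with compound 4 came with the widest spread between samples, and the order of the pairs differed between compounds. The arms that both complexes share did not shift in 1 direction: SMC4 was 1.64 and 1.61 times SMC2 with DMSO, 1.42 and 1.73 for compound 4, 1.71 and 1.83 for compound 5, and 1.39 and 1.54 for compound 6, so that compound 5 lay above the controls and compound 6 below.

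**Figure D4:**
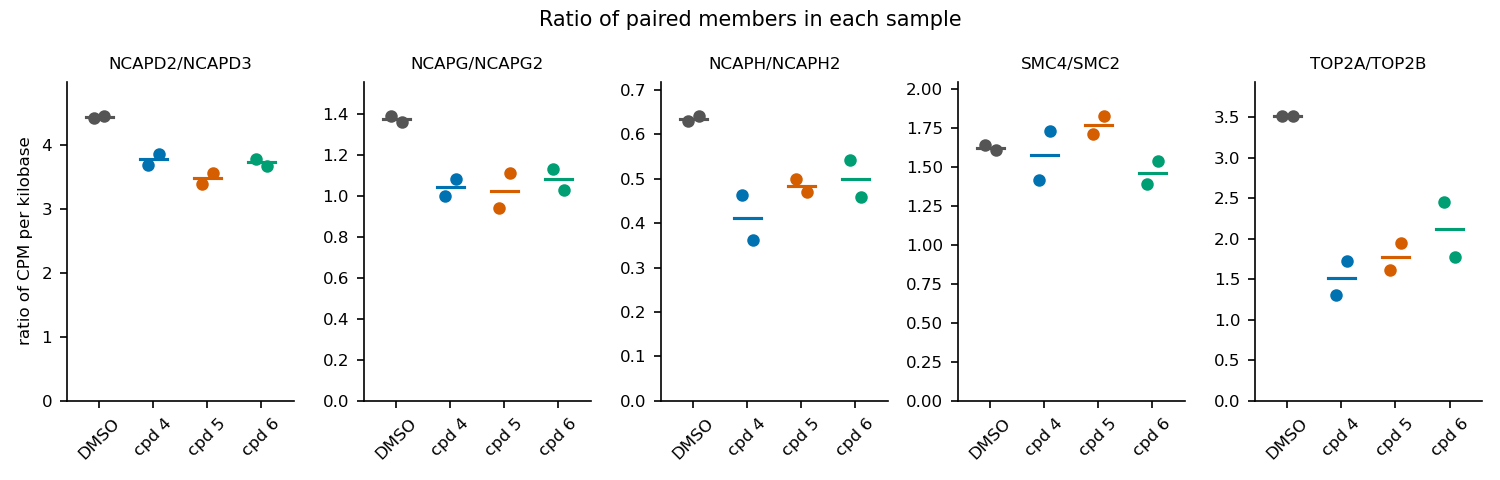
Ratio of CPM per kilobase within each pair of genes, with 1 point per sample and a line at the mean of the 2 samples. The ratios of condensin I to condensin II counterparts and of TOP2A to TOP2B are below the DMSO samples in all 6 treated samples, while SMC4 to SMC2 varies between 1.39 and 1.83 around the DMSO values.

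The topoisomerase II isoforms parted most. TOP2A (ENSG00000131747, chr17:40388516-40417950, minus strand) was read at 469 and 536 CPM for DMSO, 183 and 180 for compound 4, 293 and 316 for compound 5, and 335 and 245 for compound 6. Each treated sample was far below the controls, and the samples with compound 4 kept 36.1% of the DMSO level. The log2 fold changes of TOP2A were -1.47 (SE 0.14, adjusted p = 3.38e-04 with edgeR), -0.72 (SE 0.14, 0.00418), and -0.79 (SE 0.14, 0.0144) with compounds 4, 5, and 6. They were the most negative of the 10 genes with compounds 4 and 5 and level with NCAPG with compound 6. The compound 6 value lay between -1.01 and -0.58 with 1 library left out, and was -0.58 without compound 6 replicate 2. TOP2A with compound 4 was called with each of the 8 libraries left out, with values between -1.56 and -1.37, and with compound 5 it was not called without compound 5 replicate 1 (-0.64, adjusted p = 0.0512).

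TOP2B (ENSG00000077097, chr3:25597905-25664907, minus strand) was read at 125 and 143 CPM for DMSO, 131 and 97.9 for compound 4, 171 and 153 for compound 5, and 128 and 129 for compound 6. The samples with compounds 4 and 6 overlapped the controls and those with compound 5 lay above them. None of its changes passed: -0.23 (95% CI -0.54 to 0.08, adjusted p = 0.326 with edgeR), 0.27 (95% CI -0.04 to 0.58, 0.168), and -0.06 (95% CI -0.37 to 0.25, 0.861). In a fit of only the DMSO and compound 5 samples the value for compound 5 was 0.29 and passed (0.0342), as it did without compound 4 replicate 2 (0.30, 0.0456), and without DMSO replicate 2 the value for compound 6 was 0.04. Per kilobase, TOP2A was 3.52 times TOP2B in both DMSO samples. The ratio was 1.31 and 1.73 for compound 4, 1.61 and 1.95 for compound 5, and 2.46 and 1.78 for compound 6. The log2 fold change of TOP2A minus that of TOP2B was -1.24 (SD 0.28), -0.99 (SD 0.20), and -0.73 (SD 0.33).

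The compounds were also compared with each other, in 3 pairs, each adjusted over all 13404 genes. Since each was given at its IC50, a difference in structure and one in concentration cannot be told apart. Compound 5 and compound 4 differed in 5 of the 10 genes, all higher with compound 5, beside 6.91% of all genes tested. They were TOP2A (0.75, SE 0.14, adjusted p = 0.0112 with edgeR), SMC4 (0.57, SE 0.12, 0.0156), NCAPG2 (0.57, SE 0.15, 0.0344), TOP2B (0.50, SE 0.14, 0.0406), and NCAPG (0.55, SE 0.16, 0.049). The call of NCAPG was lost with the day as a block (0.0568). Upper-quartile scaling left 3 members called and library size alone 2, whereas no filter on low counts gave 7. Both samples with compound 5 lay above both with compound 4 for 9 genes, beside 28.3% of all genes, and NCAPH2, which overlapped, differed by 0.07 (95% CI -0.20 to 0.33). The count of 5 was 2 without DMSO replicate 1, 3 without DMSO replicate 2, 8 and 2 without compound 4 replicate 1 and 2, and 0 without either compound 5 sample. The 5 genes include subunits of both condensins and both topoisomerase II isoforms.

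No member passed with edgeR between compound 6 and either of the others. Against compound 5, 0 of 10 genes passed with edgeR or DESeq2, beside 9.91% of all genes called with edgeR. At an unadjusted p under 0.05 there were 2 members (SMC4 and TOP2B), beside 3686 of the 13404 genes tested. For TOP2A the difference, compound 5 minus 6, was 0.07 (95% CI -0.24 to 0.38). Against compound 4, 0 of 10 passed with edgeR beside 0.0448% of all genes called, which was 6 genes. At an unadjusted p under 0.05 there were 5 members, beside 1315 of the 13404 genes tested. The largest of these differences was that of TOP2A, compound 4 minus 6, at -0.68 (95% CI -0.99 to -0.36, adjusted p = 0.173 with edgeR), and DESeq2 called it (0.00128). These compounds differ by tert-butyl against cyclohexyl on the rings. After TOP2A the intervals reached farthest for NCAPG (-0.72) and SMC2 (-0.71).

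Genes that act on the same chromosomes were taken from 4 further lists, which were chosen with earlier results of these data known. Of the 11 regulators of condensin and partners on the chromosome axis, 9 fell with compound 4, 8 with compound 5, where 1 rose (beside 13.9% of all genes), and 6 with compound 6, beside 5.42%, 14.2%, and 1.6% of all genes called as lower, with median log2 fold changes of -1.01, -0.67, and -0.68. CDK1, the mitotic kinase that activates condensin, changed by -1.10 (adjusted p = 0.00203 with edgeR), -0.93 (0.00208), and -0.74 (0.0289). AURKB, the kinase that helps to load condensin I, changed by -1.25 (0.00139), -0.73 (0.00677), and -0.86 (0.0166), and KIF4A, a chromosome motor that binds condensin I, by -0.99 (0.0026), -0.50 (0.0291), and -0.66 (0.0359). MKI67, which coats mitotic chromosomes, fell with compound 4 (-1.28, 0.0159) and had values of -0.37 (0.343) and -0.58 (0.281) with the others. Neither MCPH1 nor PPP2R1A fell with any compound. MCPH1, which holds condensin II inactive in interphase, rose with compound 5 (0.53, 0.013), and its values with compounds 4 and 6 were 0.13 (0.581) and 0.02 (0.959). PPP2R1A, the scaffold of the phosphatase PP2A, had values of -0.11 (0.625), -0.15 (0.375), and -0.16 (0.519). CCNA2 with compound 6 was lost under the block (0.0604), and the count with compound 6 was 0 without DMSO replicate 1, DMSO replicate 2, or compound 6 replicate 2. With compound 5 the count was 5 without DMSO replicate 2 and 2 without compound 5 replicate 1.

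The other lists held cohesin, the SMC5/6 complex, and further topoisomerases. Of 14 genes of cohesin and its regulators, which hold sister chromatids together, 4 fell with compound 4, 2 with compound 5, where MAU2 rose, and 1 with compound 6, beside 5.42%, 14.2%, and 1.6% of all genes called as lower, so that the share with compound 5 was close to that of all genes. The medians were -0.30, 0.08, and -0.15. The value of 0.08 is smaller than the shift of all genes between scalings. No member of the cohesin ring itself was among them except RAD21 with compound 4 (-0.44, adjusted p = 0.0193 with edgeR). SMC1A and SMC3, the cohesin counterparts of SMC2 and SMC4, had values of -0.30 (0.211) and -0.33 (0.157) with compound 4. The others that fell act on cohesin in S phase or mitosis: ESCO2, which acetylates it, by -1.28 (0.0115) with compound 4 and -0.97 (0.0185) with compound 5, CDCA5 (sororin) by -0.77 (0.0064) with compound 4 and -0.68 (0.026) with compound 6, and SGO1 (shugoshin) by -0.62 (0.0371) with compound 4 and -0.55 (0.0327) with compound 5. The count with compound 4 lay between 0, without DMSO replicate 2, and 9, without compound 4 replicate 1, and it was 2 without DMSO replicate 1 or compound 4 replicate 2. The 2 with compound 5 became 0 without DMSO replicate 2 or compound 5 replicate 1, and 1 without DMSO replicate 1 or compound 5 replicate 2, and CDCA5 with compound 6 was lost without either DMSO sample or compound 6 replicate 2. The rise of MAU2 (0.32, 0.0443) was lost under the block (0.0554).

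Of 6 genes of the SMC5/6 complex, a DNA repair relative of condensin, none was called with compound 4 or 6, where 0 had an unadjusted p under 0.05, beside 3619 and 2680 of the 13404 genes tested, and DESeq2 called 0 as lower. NSMCE1 (-0.52, adjusted p = 0.0128 with edgeR) and NSMCE4A (-0.51, 0.0403, and 0.0531 under the block) fell with compound 5, beside 14.2% of all genes called as lower, and the count was 0 or 1 without either DMSO or either compound 5 sample. Of 6 other topoisomerases and tyrosyl-DNA phosphodiesterases, 1 fell with compound 4, beside 5.42% of all genes, TDP1 (-0.63, 0.013), which frees topoisomerase I from DNA ends, and it was not called without either DMSO sample. With compound 5, 2 rose, TOP1 (0.42, 0.0253) and TOP1MT (0.34, 0.0329), beside 13.9% of all genes. None was called with compound 6, where 2 had an unadjusted p under 0.05, beside 2680 of the 13404 genes tested, and DESeq2 called 0 as lower. The medians of these 6 genes were -0.12, -0.12, and -0.15.

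**Figure D5:**
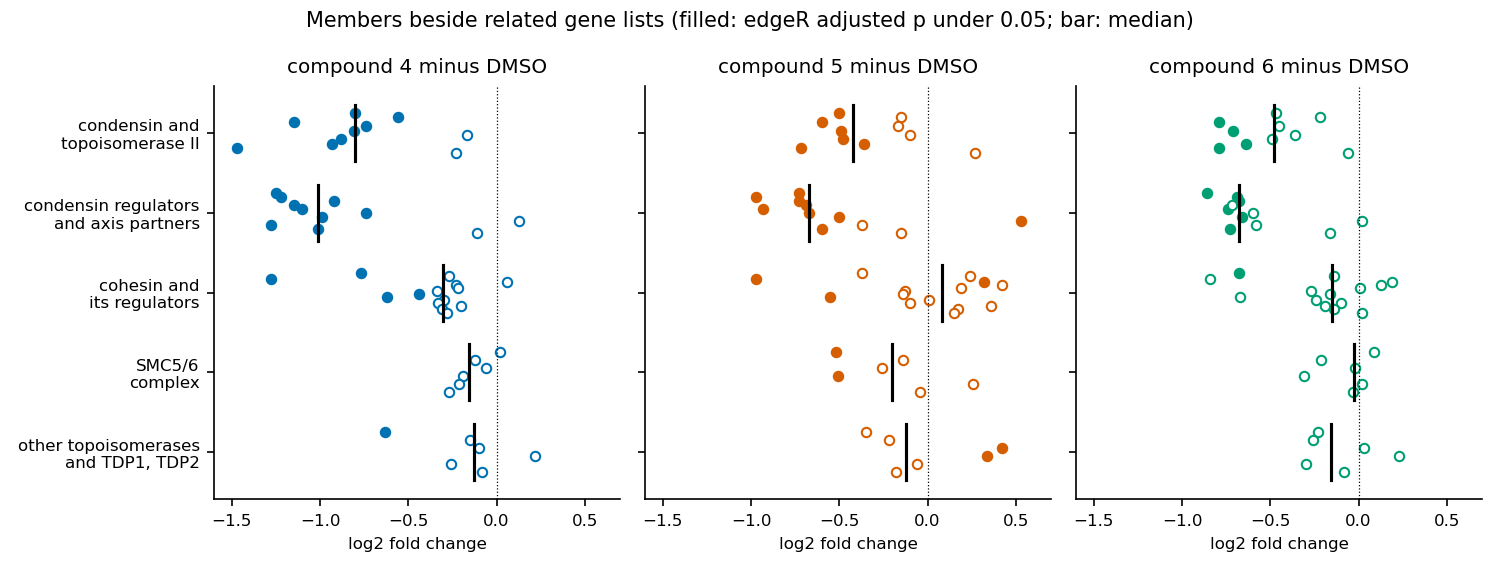
Log2 fold change of each gene against DMSO, by list and compound, with 1 point per gene, filled where the edgeR adjusted p was under 0.05, and a bar at the median. The regulators and axis partners lie with the condensin genes, with medians of -1.01 and -0.80 for compound 4. The medians of the cohesin, SMC5/6, and other topoisomerase lists lie nearer to 0, from -0.30 to 0.08. With compound 4, 13 of the 14 cohesin values are negative.

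Across the 8 samples the log2 CPM of the members were compared as a description, over points that share 4 group means and therefore the changes given above. SMC2 and NCAPD2 were the most alike pair (Pearson r = 0.99), and the r between TOP2A and the shared or condensin I genes lay between 0.922 and 0.978. NCAPD3 (0.89) and NCAPG2 (0.909) were nearly as close to TOP2A. NCAPH2 and TOP2B had r of 0.447 and 0.403 to TOP2A and -0.0675 to each other. Their highest r within the 10 genes were 0.662, of NCAPH2 to NCAPH, and 0.713, of TOP2B to NCAPD3. Among all genes tested, those most like TOP2A included PRC1 (0.988), TPX2 (0.986), DCAF7 (0.985), and NUF2 (0.984). Those most like TOP2B were CACUL1 (0.995), DYNC1LI2 (0.994), LATS1 (0.987), PHIP (0.986), and ADGRL2 (0.986). No gene was among the 5 most correlated with both isoforms.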

How the data were processed

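mRNA from 8 samples was sequenced from strand-specific libraries. As the study's methods and the labels give it, the authors checked reads with FastQC 0.12.0 and quantified transcripts of GENCODE 38 with Salmon 1.5.0, after which tximeta gave gene totals. Deposited were these estimated counts, as unnormalized whole numbers. Symbols were found for 60089 of 60230 genes. Coordinates and lengths came from GENCODE 29 on GRCh38, and the study's release was not used here.

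The analysis used edgeR 4.0.16 (R 4.3.3). Genes were kept by filterByExpr, and libraries were scaled by TMM (factors 0.958 to 1.04). A quasi-likelihood model of the 4 groups was fitted to all 8 samples. A gene counted as called below 0.05 after Benjamini-Hochberg adjustment over 13404 tested genes. SE values were derived from the F statistics. CPM levels used no prior count, correlations a prior count of 2. The SD of a difference of scores is the root of the summed replicate variances. At these depths 3 counts were 0.225 to 0.317 CPM, counting error only.

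The day in the labels served as a block in an alternative fit. Samples with the same day shared little, with correlations of their deviations from -0.0826 to 0.16. The study gives an exposure of 24 h and 2 replicates per group, and does not say what the days stand for. The main fit left the day out. The other alternatives were DESeq2 1.42.0, RLE, upper-quartile and library-size scaling, no filter, at least 10 counts in every sample, only the groups compared, a cutoff of 0.01, each sample left out, the longest transcript, and a prior count of 0.5. The procedure was tested on simulated data.

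Named genes were the 10 members, the genes of the lists, and the 5 genes most correlated with each topoisomerase II isoform. A gene that this rule selects is not reported here. The members and lists were chosen with earlier results of these data known.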

Additional observations from a re-analysis of the deposited data

Results flagged for a closer look

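The members whose change differed between compound 5 and compound 4 in a direct test of the compounds were TOP2A, TOP2B, SMC4, NCAPG, and NCAPG2. The log2 difference, compound 5 minus compound 4, was 0.75 for TOP2A (mean 305 against 181 CPM, edgeR adjusted p = 0.0112), 0.50 for TOP2B (162 against 114, 0.0406), and 0.57 for SMC4 (98.3 against 66.1, 0.0156). It was 0.55 for NCAPG (46.7 against 32.0 CPM, 0.049) and 0.57 for NCAPG2 (64.8 against 43.8, 0.0344). Upper-quartile scaling left 3 members called and library size alone 2, whereas no filter on low counts gave 7. Both samples with compound 5 were above both with compound 4 for each of the 5 genes, which was so for 28.3% of all genes tested. No member passed without compound 5 replicate 1 or without compound 5 replicate 2.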

How the results depend on the processing

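With 1 library left out, a lone sample was assumed to vary like the other groups. The members called as lower then numbered 5 to 9 with compound 4, 0 to 6 with compound 5, and 0 to 6 with compound 6, of 335 to 1703, 1680 to 4519, and 1 to 1096 genes called. Members differing between compounds 5 and 4 numbered 0 to 8. Regulators and axis partners called as lower numbered 6 to 9, 2 to 8, and 0 to 8, cohesin genes 0 to 9, 0 to 2, and 0 to 2, SMC5/6 genes with compound 5 0 to 2, and other topoisomerases with compound 4 0 to 1. The signs that turned were those of TOP2B with compound 6 (-0.15 to 0.04, positive without DMSO replicate 2) and NCAPH2 with compound 5 (-0.21 to 0.02, positive without compound 5 replicate 1), neither of them called.

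At a cutoff of 0.01, 591, 1809, and 92 genes were called with compounds 4, 5, and 6, and 1 member with compound 5, 0 with compound 6, and 0 between compounds 5 and 4. Cohesin genes then numbered 1, 0, and 0, regulators 5 with compound 5 and 0 with compound 6, and SMC5/6 genes with compound 5 and other topoisomerases with compound 4 were 0. Without a filter, compound 6 had 1441 genes, 7 members, and 3 cohesin genes, and compounds 4 and 6 differed in 1 member, as with DESeq2. DESeq2 left 1 cohesin and 1 SMC5/6 gene with compound 5. With the replicate block 1 SMC5/6 gene was called with compound 5, SMC4 was lost there and NCAPG between compounds 5 and 4, and the block changed no other call of a member. Upper-quartile scaling called 1 other topoisomerase as lower with compound 5, and 3 members between compounds 5 and 4. Library size alone gave 2 and 2, and 2 cohesin genes with compound 6, as did the fit of only the groups compared. These 2 scalings moved the median of all genes with compound 5 from -0.03 to -0.12 and -0.14, and the share of its called genes that were higher from 49.3% to 36.6% and 33.3%. The causes were not tested, except that a stricter cutoff leaves fewer calls by construction.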
